A study of Homo sapiens with 15 samples.

Results

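Constitutively active NFATc4 was compared with a second reference in NCI-H295R, a line grown from a human carcinoma of the adrenal cortex that secretes aldosterone and cortisol. The comparison used 7 of the 15 RNA-Seq libraries of the study: 3 of cells with active NFATc4 and 4 that together are called set A here. The 3 active NFATc4 libraries came from cells of WT genotype transfected with a plasmid for truncated NFAT3 (pcDNA3.T7 delta-NFAT3), and 4 mock libraries came from WT cells given the empty pcDNA3.T7 plasmid, both with RNA taken 3 days after transfection. Set A holds control replicates 1 and 2, which are WT and carry no treatment in the labels, and replicates 1 and 2 labelled NFATc4-KO, an NFATc4 knockout. The study made its knockout lines from single cells after CRISPR/Cas9 and grew control cells in parallel with empty plasmids, so a clone may differ from its parent line for reasons other than NFATc4. The day of RNA collection is not given in the sources used here for set A. Active NFATc4 and set A therefore differ in culture, and culture and NFATc4 cannot be told apart in this comparison, whereas mock and active NFATc4 cells had the same kind of transfection. Set A was chosen from the measured profiles, because these 4 libraries were close to mock in all genes and in NFATC4, CYP11B2 and CYP11B1. Values of those 3 genes against set A are therefore described without a P value. All 3 were called higher against both references in the fit and stay in the counts of rises that held. The other 4 libraries with the labels control and NFATc4-KO stand apart from set A and were not used in the fit.

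NFAT proteins are transcription factors that stay in the cytoplasm while phosphorylated. A rise in calcium activates the phosphatase calcineurin, which dephosphorylates NFAT and lets it enter the nucleus, and the truncated form used here does not need that step. In the zona glomerulosa of the adrenal cortex, potassium and angiotensin II raise calcium and with it the synthesis of aldosterone, whose last steps are carried out by aldosterone synthase, the product of CYP11B2. The second reference asks which differences between active NFATc4 and mock cells are also seen against cells that were never in the mock group. Whether a difference seen against mock alone comes from mock or from set A was not tested.

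The sequences upstream of 4 genes are shown because these genes stand for the outcomes described here. RCAN1, a calcineurin inhibitor and known NFAT target, was higher against both references, and GSTA1, a glutathione transferase, was lower against both. ALDOC, a glycolytic aldolase, and DDIT4, an inhibitor of mTORC1 signaling that hypoxia induces, were lower than in mock cells only by the tests given below. Sequences are from RefSeq (GRCh38.p14), read 5′ to 3′ on the strand of the gene, from the 250 bases before the first listed start, without bases that the annotation places inside the gene. Capitals mark GGAAA or its reverse complement TTTCC, the core that NFAT proteins bind, in RCAN1 and GSTA1, and ACGTG or CACGT, the core of the hypoxia response element, in ALDOC and DDIT4. The window of RCAN1 lies at chr21:34615114-34615363 on the minus strand and held 0 matches in 250 bases.
RCAN1: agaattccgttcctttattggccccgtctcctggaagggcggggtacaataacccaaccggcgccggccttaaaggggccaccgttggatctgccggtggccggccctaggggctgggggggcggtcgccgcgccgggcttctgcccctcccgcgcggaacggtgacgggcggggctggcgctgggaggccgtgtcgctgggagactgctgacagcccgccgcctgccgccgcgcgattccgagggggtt
The window of GSTA1 lies at chr6:52803861-52804066 on the minus strand and held 1 match in 206 bases.
GSTA1: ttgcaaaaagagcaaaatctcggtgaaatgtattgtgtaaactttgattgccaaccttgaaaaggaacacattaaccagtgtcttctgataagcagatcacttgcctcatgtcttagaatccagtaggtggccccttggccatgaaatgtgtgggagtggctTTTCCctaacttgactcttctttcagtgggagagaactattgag
The window of ALDOC lies at chr17:28576949-28577145 on the minus strand and held 2 matches in 197 bases, 1 on each strand of a single CACGTG.
ALDOC: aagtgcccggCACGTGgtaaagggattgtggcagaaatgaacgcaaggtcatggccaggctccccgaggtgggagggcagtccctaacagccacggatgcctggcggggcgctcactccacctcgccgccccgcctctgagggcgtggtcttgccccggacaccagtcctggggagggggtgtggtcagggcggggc
The window of DDIT4 lies at chr10:72273674-72273918 on the plus strand and held 1 match in 245 bases.
DDIT4: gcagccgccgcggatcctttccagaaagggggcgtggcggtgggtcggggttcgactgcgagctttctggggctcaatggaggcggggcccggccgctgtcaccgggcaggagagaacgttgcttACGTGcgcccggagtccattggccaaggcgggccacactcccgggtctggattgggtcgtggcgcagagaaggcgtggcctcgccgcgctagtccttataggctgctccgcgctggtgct
These matches are descriptions and not binding sites. Sequence before any other start of these genes, such as one inside the long RCAN1 gene, was not examined. Across genes, GGAAA on either strand was found in 53.9% of 141 windows of genes that rose over 2-fold against both references, in 53.3% of 11081 windows of genes tested and in 56.0% of all 27305 windows of the table. ACGTG was found in 25.5% of 318 windows of genes that were lower than in mock but not held, with mock apart from set A, in 23.0% of the windows of genes tested and in 18.7% of all. The upstream windows of MGP and COL3A1 were not used here.

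Levels are given as CPM, the share of a library's counts after TMM scaling, where TMM evens out differences in composition. The 11 libraries of the fit held between 18.8 and 28.2 M counts each. Of 21493 genes, 14251 had enough counts to be tested, in one edgeR quasi-likelihood fit with a mean for active NFATc4, mock and set A. A gene is called higher or lower at a Benjamini-Hochberg adjusted P under 0.05, and a change against mock is said to hold where the gene was also called in the same direction against set A. Whether libraries of a group came from separate cultures is not stated in the labels or methods, so P values reflect library-to-library spread only, which may be technical. Across genes, log2 CPM of active NFATc4 libraries correlated with those of mock at 0.986 to 0.989 and with those of set A at 0.980 to 0.985 (values are across genes, which are no replicates). Mock libraries correlated with those of set A at 0.980 to 0.989, so the lowest value was below that of active NFATc4 with mock. An exact permutation test of 3 libraries against 4 cannot go below 0.057.

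Large rises in active NFATc4 cells mostly held against set A, and large falls mostly did not. Against mock, 1063 genes (7.46%) were higher and 868 (6.09%) lower, and 569 of the rises (53.5%) and 366 of the falls (42.2%) held. Over all genes, 16.6% were called higher and 17.8% lower than in set A, or 34.4% in either direction. Of all genes tested, 3.99% were higher and 2.57% lower against both references. Among rises over 4-fold, 81 of 88 held (92.0%), among rises of 2- to 4-fold 168 of 226 (74.3%) and among smaller rises 320 of 749 (42.7%). Rises over 2-fold against mock made up 2.2% of all genes and falls over 2-fold 0.182%, and against set A 2.78% and 0.933%. Mock was over 2-fold above set A in 0.807% of genes and over 2-fold below it in 1.36%. Of these 26 falls, 10 held (38.5%), and their median log2 fold change was −1.19 against mock and −0.52 against set A. Mock was called apart from set A in 42.1% of all genes. Of the changes that did not hold, 291 rises and 266 falls kept their direction against set A without a call. Some changes turned round: 72 rises and 39 falls against mock were called in the opposite direction against set A. Both comparisons share the active NFATc4 libraries, so their agreement is not independent. With separate means for the controls and the libraries labelled NFATc4-KO of set A, 1333 genes were higher and 1136 lower than in mock. Of these, 593 rises (44.5%) and 440 falls (38.7%) held against the controls, and 630 (47.3%) and 415 (36.5%) against the libraries labelled NFATc4-KO. Without 1 of the active NFATc4 libraries the falls that held numbered 196 (replicate 1), 236 (replicate 2) or 216 (replicate 3).

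**Figure D1:**
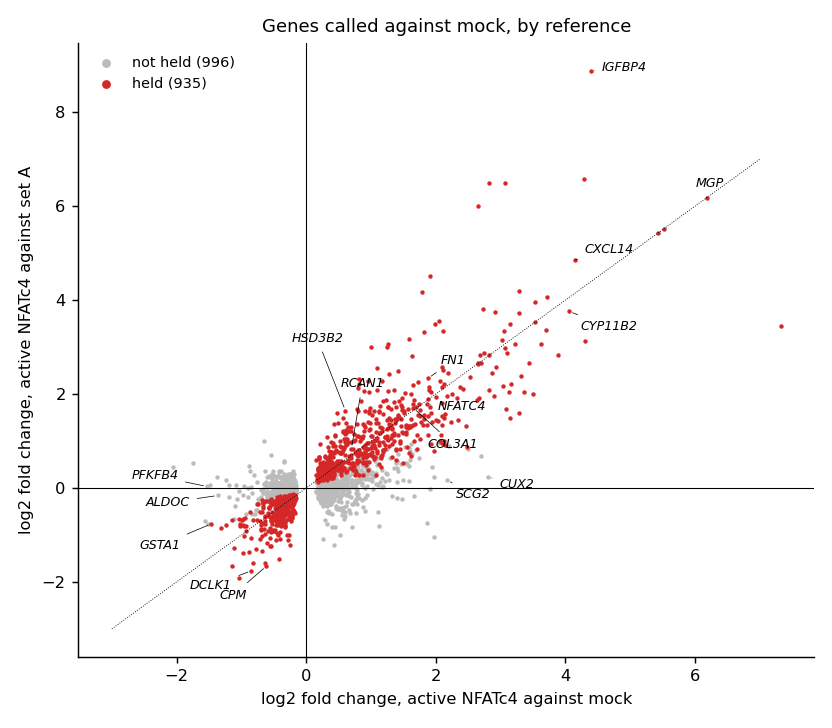
Each point is a gene called in active NFATc4 against mock, with its log2 fold change against mock on the horizontal axis and against set A on the vertical axis, and the dotted line marks equal values. The 935 red genes were called in the same direction against set A and the 996 grey genes were not. CYP11B2, MGP and CXCL14 lie near the dotted line at the upper right, while PFKFB4, ALDOC, CUX2 and SCG2 lie near 0 on the vertical axis.

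NFATC4 and CYP11B2 stood well above mock and set A. The similar factor against each follows from the choice of set A as close to mock in these genes. NFATC4 (ENSG00000100968, chr14:24365673-24379604, plus strand) had 330, 359 and 341 CPM in the active NFATc4 libraries, 91.7, 92.6, 105 and 87.3 CPM in mock, 114 and 109 CPM in control replicates 1 and 2, and 92.0 and 84.4 CPM in the replicates 1 and 2 labelled NFATc4-KO. The libraries labelled NFATc4-KO thus still held NFATC4 RNA, just below the controls of set A. In transfected cells its count also takes in RNA made from the plasmid. The log2 fold change was 1.86 (SE 0.09) against mock and 1.78 (SE 0.09) against set A. CYP11B2 (ENSG00000179142, chr8:142910559-142917843, minus strand), the gene of aldosterone synthase, had 38.2, 41.0 and 35.6 CPM with active NFATc4, 2.79, 2.39, 2.52 and 1.57 CPM in mock, and 2.90, 2.78, 2.31 and 3.23 CPM in set A in the same order of libraries. All 3 active NFATc4 libraries lay above all 8 reference libraries, as in 6.04% of all genes, while 4.34% lay below all 8. Above all 4 of set A lay 21.7% of genes and below them 21.9%. The log2 fold change was 4.06 (SE 0.13) against mock and 3.76 (SE 0.12) against set A. CYP11B1, its neighbor that makes cortisol and is close in sequence, had 3.72, 5.43 and 2.89 CPM against 1.40 to 2.22 CPM in mock and 0.870 to 1.74 CPM in set A. Reads that fit both genes may be counted for either, and the authors' setting for such reads is not given in the sources used here.

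RCAN1 and MGP rose against both references, and neither differed detectably between mock and set A. RCAN1 (ENSG00000159200, chr21:34513142-34615113, minus strand) had 47.9, 45.5 and 50.4 CPM with active NFATc4, 33.0, 30.0, 27.4 and 27.7 CPM in mock, and 25.9, 24.7, 28.6 and 28.3 CPM in set A. All active NFATc4 libraries lay above both references, which overlapped each other, and the log2 fold change was 0.84 against set A (SE 0.08, edgeR adjusted P = 1.6e-07) and 0.70 against mock (SE 0.08, edgeR adjusted P = 3.8e-06). MGP (ENSG00000111341, chr12:14880864-14885857, minus strand), which encodes matrix Gla protein, an inhibitor of calcification, had 3.40, 6.03 and 5.46 CPM with active NFATc4 and at most 0.0935 CPM in mock and 0.155 CPM in set A. Reference levels of MGP rest on a few counts a library, and the log2 fold change was 6.18 (SE 0.38) against each reference (edgeR adjusted P = 1.1e-09 against set A). Of the other 17 genes of the calcineurin and NFAT list, NFATC4 left out, 1 was higher against each reference, RCAN1, beside 16.6% of all genes higher than in set A and 7.46% higher than in mock. Against set A 5 of the 17 were lower, beside 17.8% of all genes, among them NFAT5 (−0.56) and RCAN2 (−0.82) on the log2 scale, and 0 were lower than in mock.

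GSTA1 was lower against both references, by less against set A. GSTA1 (ENSG00000243955, chr6:52791371-52803860, minus strand) had 138, 136 and 118 CPM with active NFATc4, 406, 349, 336 and 353 CPM in mock, and 205, 233, 207 and 243 CPM in set A. The 3 sets of libraries did not overlap, with set A between the other two. The log2 fold change was −1.46 against mock (SE 0.08, edgeR adjusted P = 6.6e-10) and −0.76 against set A (SE 0.08, edgeR adjusted P = 8.2e-07), and mock was above set A by 0.70 (edgeR adjusted P = 9e-07). GSTA2, a close paralog, followed the same order, with log2 fold changes of −1.31 and −0.85. Reads shared between the paralogs may be split by the counting. Of 17 tested genes of the glutathione transferase and NRF2 list, 6 were lower than in mock and 5 lower than in set A (6.09% and 17.8% of all genes), and 2 and 3 were higher (7.46% and 16.6%), with GSTA1, GSTA2 and GSTM2 lower against both.

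**Figure D2:**
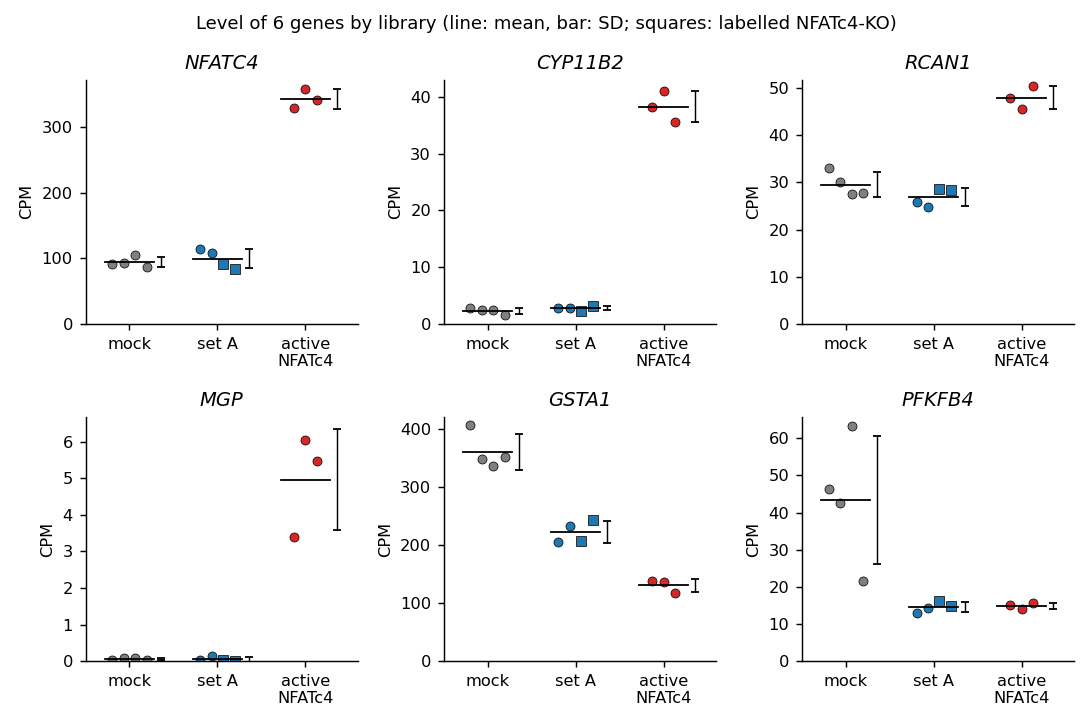
CPM of 6 genes in each library of mock, set A and active NFATc4 (vertical axes, from 0), with squares for libraries labelled NFATc4-KO, a line at the mean and a bar of 1 SD. NFATC4, CYP11B2, RCAN1 and MGP are high in active NFATc4 against both references, GSTA1 falls in 3 steps, and PFKFB4 is high in mock and alike in set A and active NFATc4.

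Among genes of steroid synthesis, HSD3B2 and MC2R were higher against both references. Of 12 tested members of the cortisol and aldosterone list, with CYP11B2 and CYP11B1 left out, 7 were higher than in set A and 0 lower, beside 16.6% and 17.8% of all genes. Against mock 2 were higher, HSD3B2 and MC2R, and 0 lower, beside 7.46% and 6.09%. HSD3B2, which makes progesterone from pregnenolone, had 89.2, 107 and 91.6 CPM with active NFATc4, 73.3, 63.2, 57.8 and 58.0 CPM in mock, 36.8 and 39.1 CPM in the controls of set A and 21.6 and 24.3 CPM in the libraries labelled NFATc4-KO. Active NFATc4, mock, the controls and the libraries labelled NFATc4-KO did not overlap. The log2 fold change was 1.65 against set A (SE 0.17, edgeR adjusted P = 9.2e-06), which averages its differing labels. It was 0.61 against mock (SE 0.16, edgeR adjusted P = 0.025). The call against mock was lost without active NFATc4 replicate 2 or 3 or mock replicate 2. MC2R, the receptor of ACTH, had 14.3, 16.9 and 14.4 CPM with active NFATc4 against 6.78 to 8.62 CPM in mock and 3.47 to 6.30 CPM in set A, with log2 fold changes of 0.98 and 1.65. STAR, which carries cholesterol into mitochondria, and FDX1, which supplies electrons to the mitochondrial steroid enzymes, were higher only against set A, with log2 fold changes of 0.45 and 0.54, and mock was also above set A in both. In HSD3B2, MC2R and STAR both libraries labelled NFATc4-KO lay below both controls of set A. With only the controls as reference 5 of the 12 were higher and 2 lower, and with only the libraries labelled NFATc4-KO 8 were higher and 0 lower. Without active NFATc4 replicate 2, 4 of the 12 were higher than in set A. The median log2 fold change of the 12 was 0.305 against set A and 0.126 against mock, beside 0.0115 and −0.00137 over all genes.

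Among genes of the extracellular matrix, 7 of 21 tested rose against both references. They were MGP, COL3A1, FN1, BGN, LUM, TIMP1 and IMPG2, and 3.99% of all genes rose against both. Against mock 9 members were higher and 3 lower, and against set A 8 were higher and 7 lower, beside 7.46%, 6.09%, 16.6% and 17.8% of all genes. COL1A1, a chain of type I collagen, was among those lower than in set A (log2 fold change −0.28, edgeR adjusted P = 0.048), a call lost in 8 of the 11 fits without 1 library, and it was not called against mock. COL3A1, a fibrillar collagen, had 38.1, 40.9 and 35.5 CPM with active NFATc4, 10.7, 11.7, 12.7 and 13.2 CPM in mock, and 13.7, 12.1, 11.2 and 9.82 CPM in set A. FN1, fibronectin, had 53.8, 56.5 and 58.4 CPM against 11.6 to 17.7 CPM in mock and 9.07 to 12.3 CPM in set A. For both genes the active NFATc4 libraries lay far above all reference libraries, and the log2 fold changes against set A were 1.71 (SE 0.10, edgeR adjusted P = 4.1e-10) and 2.34 (SE 0.12, edgeR adjusted P = 1.5e-10). COL4A1 and COL4A2, chains of basement membrane collagen that lie side by side in the genome, turned round: they were higher than in mock, by 0.48 and 0.35 on the log2 scale, and lower than in set A (−0.44 and −0.28). LUM lost its call against mock without active NFATc4 replicate 1, and TIMP1 lost its call against mock without any 1 of the active NFATc4 libraries, or without mock replicate 2, 3 or 4.

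The 15 largest rises that held against set A, with at least 1 CPM in a set, were mostly genes near 0 in both references. Some are members of lists above. CYP11B2 enters by its calls against both references, although set A was chosen as close to mock in this gene. By their fold against set A they were IGFBP4, MGP, REG3A, CXCL14, SERPINA3, CYP24A1, CYP11B2, CST2, SLC6A13, FRZB, ABCG2, OIT3, MMP9, SLC6A12 and IMPG2. IGFBP4, which binds insulin-like growth factors, had 2.23, 2.89 and 2.47 CPM with active NFATc4, 0.131, 0.0428, 0.140 and 0.143 CPM in mock and no count in set A. Its mean was at least 80.1-fold higher than set A, taking 3 counts over the 4 libraries together as the floor. CXCL14, a chemokine, had 2.63, 2.76 and 3.31 CPM against at most 0.215 CPM in mock and 0.202 CPM in set A, with a log2 fold change of 4.86 against set A (SE 0.36, edgeR adjusted P = 1e-08). FRZB, a secreted WNT antagonist, had 1.38, 0.862 and 0.788 CPM against at most 0.131 and 0.144 CPM. SERPINA3, a protease inhibitor, had 3.48, 3.92 and 3.68 CPM, 0.641 to 1.31 CPM in mock and 0.124 to 0.193 CPM in set A. In SERPINA3, SLC6A13, CYP24A1, ABCG2 and MMP9 mock was also called higher than set A, so that the rise against set A was larger than that against mock, while in IMPG2 mock was lower than set A. Among transcription factors of the NR4A family, which regulate CYP11B2, NR4A2 rose against both references (5.78 to 6.67 CPM, against 3.01 to 3.51 in mock and 3.39 to 4.31 in set A), whereas NR4A1 was higher than in mock by 0.49 and near set A (log2 fold change 0.03, edgeR adjusted P = 0.78).

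The falls that held were smaller than the rises. The 15 largest against set A were led by DLGAP1, DCLK1, the gene of carboxypeptidase M (CPM), FRMD4B, PCDH15, NKAIN3, CADPS and DNER. The others were TMEM178B, NPY1R, DMD, ARMH4, RHOJ, LRP8 and TMCC3. In 14 of the 15 mock was called below set A as well, which ranking by the fall against set A favors. Among all 366 falls that held, mock was called below set A in 98, above it in 31 and not called in 237. DCLK1, a kinase that binds microtubules, had 22.4, 21.9 and 22.5 CPM with active NFATc4, 34.9, 41.9, 40.9 and 42.6 CPM in mock, and 80.5, 75.8, 76.0 and 70.9 CPM in set A. Its levels fell in 3 steps, with log2 fold changes of −0.85 against mock (SE 0.08, edgeR adjusted P = 2.8e-07) and −1.77 against set A (SE 0.07, edgeR adjusted P = 7.1e-12). NPY1R, a receptor of neuropeptide Y, was the exception in which mock was not called apart from set A, at 0.862 to 1.13 CPM against 1.61 to 2.86 CPM in mock and 1.74 to 2.78 CPM in set A. VLDLR, a lipoprotein receptor, showed the same size of fall against both, with 20.6, 19.6 and 19.0 CPM against 32.1 to 42.0 CPM in mock and 36.2 to 37.98 CPM in set A. Calls against mock were lost for DLGAP1 and RHOJ without any 1 of the active NFATc4 libraries, for NKAIN3 and TMCC3 without active NFATc4 replicate 1 or 3 or mock replicate 2, and for PCDH15 without active NFATc4 replicate 1. They were also lost for DLGAP1 without mock replicate 2, 3 or 4, for TMCC3 without mock replicate 3, and for RHOJ without mock replicate 1, 3 or 4, control replicate 2 or NFATc4-KO replicate 1.

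Glycolysis genes were lower in active NFATc4 than in mock cells, and most of that difference was not seen against set A. Of 21 tested members, 15 were lower than in mock and 0 higher, beside 6.09% and 7.46% of all genes. Against set A 5 were lower and 2 higher, beside 17.8% and 16.6% of all genes. Mock itself was higher than set A in 13 and lower in 1, beside 20.7% of all genes higher and 21.4% lower. The median log2 fold change of the list was −0.32 against mock, −0.04 against set A and 0.29 for mock against set A. PFKFB4 (ENSG00000114268), which controls glycolytic flux through fructose 2,6-bisphosphate, had 15.2, 14.1 and 15.7 CPM with active NFATc4, 46.4, 42.6, 63.2 and 21.5 CPM in mock, and 13.1, 14.3, 16.2 and 14.96 CPM in set A. Active NFATc4 overlapped with set A and lay below all of mock. The log2 fold change was −1.53 against mock (SE 0.29, edgeR adjusted P = 0.0052) and 0.03 against set A (SE 0.30, edgeR adjusted P = 0.94), with mock above set A by 1.56 (edgeR adjusted P = 0.0008). In a fit of active NFATc4 and mock alone, the call of PFKFB4 against mock was lost (edgeR adjusted P = 0.0619). ALDOC had 51.8, 48.0 and 48.1 CPM, 136, 123, 155 and 94.8 CPM in mock and 54.8, 54.7, 57.0 and 53.8 CPM in set A. Its log2 fold change was −1.36 against mock (SE 0.12, edgeR adjusted P = 8.7e-07) and −0.16 against set A (SE 0.12, edgeR adjusted P = 0.3). LDHA, lactate dehydrogenase, was lower than in mock by a log2 fold change of −0.55, and −0.15 against set A was not called. The members lower against both were SLC2A1, SLC2A3, HK2 and PFKL, beside 2.57% of all genes. These 4 genes take up glucose or act early in its breakdown, while PFKFB3 was lower against set A alone. Calls against set A were lost for SLC2A1 without active NFATc4 replicate 3, for HK2 without active NFATc4 replicate 2 or 3, control replicate 1 or mock replicate 1, and for PFKL without active NFATc4 replicate 1 or 3, control replicate 1 or 2 or NFATc4-KO replicate 1. The number of members lower than in set A was 2 without active NFATc4 replicate 3 and 3 without control replicate 1, 3 with only the libraries labelled NFATc4-KO as reference, and 8 in a fit of active NFATc4 and set A alone. SLC2A3, a glucose transporter, did not differ detectably between mock and set A, with 42.9, 48.2 and 44.2 CPM in active NFATc4 against 50.7 to 60.4 CPM in mock and 56.9 to 61.8 CPM in set A. ENO2 was the opposite case, near mock and above set A by 0.75 on the log2 scale.

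**Figure D3:**
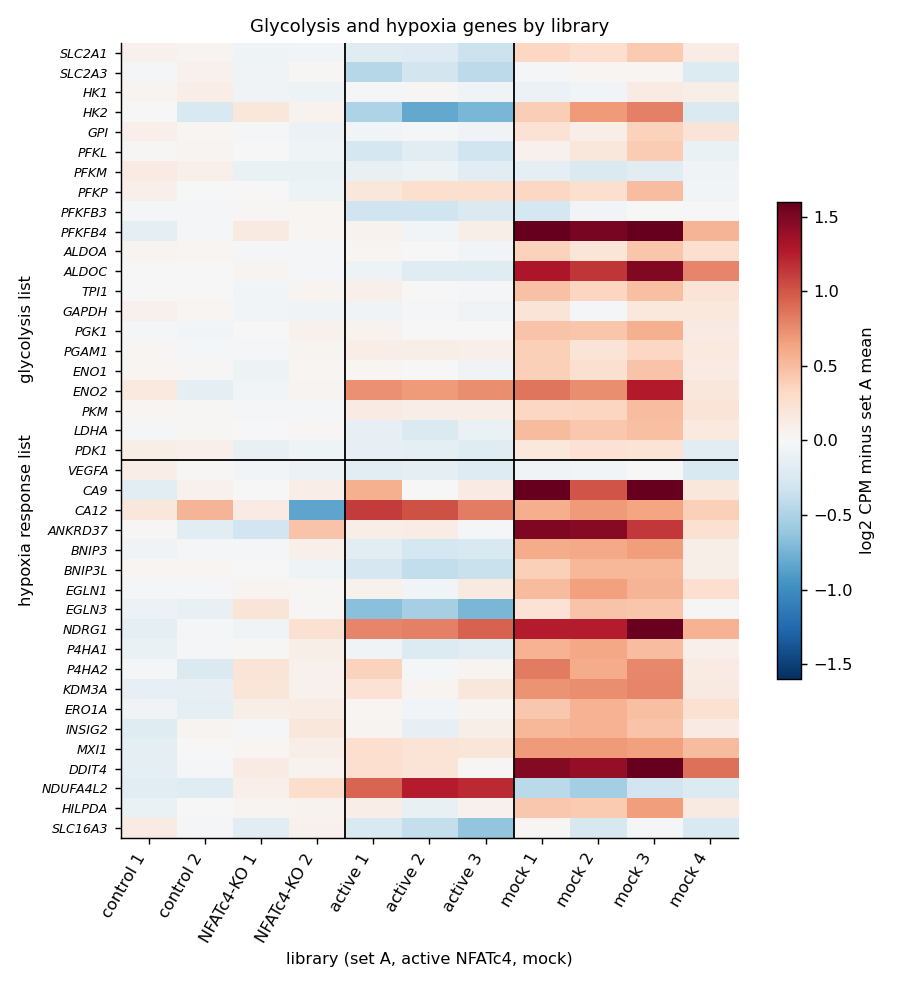
Each cell is log2 of CPM plus 0.5 of a gene in a library, minus the mean of this value in set A. Shown are the lists of glycolysis (above the horizontal line) and hypoxia response, with libraries of set A, active NFATc4 and mock from left to right. The mock columns are red for most genes, with mock replicate 4 paler, and the active NFATc4 columns are near white except for genes such as HK2, ENO2, NDRG1 and NDUFA4L2.

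Genes induced by hypoxia followed the same pattern. Of 19 tested members, 13 were lower than in mock and 1 higher, beside 6.09% and 7.46% of all genes. Against set A 3 were lower and 4 higher, close to the 17.8% and 16.6% of all genes, and mock was higher than set A in 15, beside 20.7% of all genes. DDIT4 had 17.8, 17.1 and 14.9 CPM with active NFATc4, 41.7, 39.8, 49.2 and 27.4 CPM in mock, and 13.1, 14.4, 16.2 and 15.3 CPM in set A. Active NFATc4 overlapped with set A, and the log2 fold change was −1.24 against mock (SE 0.15, edgeR adjusted P = 3e-05) and 0.18 against set A (SE 0.15, edgeR adjusted P = 0.39). ANKRD37 and CA9, 2 further targets of hypoxia-inducible factor, were at 0.683 to 0.819 and 0.388 to 0.809 CPM. This was within or near set A (0.481 to 1.16 and 0.282 to 0.456 CPM), and mock reached 2.92 and 3.93 CPM. On a scale of log2 of CPM plus 0.5, which shrinks differences at low levels, mock replicate 4 lay 0.24 and 0.18 above the mean of set A. In CA9 it lay below active NFATc4 replicate 1, at 0.57 on that scale, so mock and active NFATc4 overlapped. The call of CA9 against mock was lost without any 1 of the 11 libraries except mock replicates 2 and 4. EGLN3, a prolyl hydroxylase, was lower against both references, and NDUFA4L2, a mitochondrial protein, was higher against both, with 1.01, 1.38 and 1.31 CPM against at most 0.179 CPM in mock and 0.456 CPM in set A. Mock replicate 4 was the mock library nearest to set A in PFKFB4, ALDOC, LDHA, DDIT4, ANKRD37 and BNIP3. Without mock replicate 4, 15 glycolysis genes and 15 hypoxia genes were lower than in mock.

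Cholesterol synthesis genes were lower against both references in part. Of 19 tested members, 15 were lower than in mock, 9 lower than in set A, 8 lower against both and 0 higher against either. The shares over all genes were 6.09%, 17.8% and 2.57% lower. Mock was higher than set A in 12, beside 20.7% of all genes. INSIG1, a feedback sensor of sterols, had 58.0, 57.1 and 59.0 CPM with active NFATc4, 97.0 to 109 CPM in mock and 57.6 to 67.2 CPM in set A, with log2 fold changes of −0.83 against mock (SE 0.06, edgeR adjusted P = 5.7e-08) and −0.11 against set A (SE 0.06, edgeR adjusted P = 0.18). LSS, which closes the sterol ring, had 92.2, 87.4 and 89.0 CPM against 126 to 135 CPM in mock and 100 to 111 CPM in set A and was lower against both. SQLE, squalene epoxidase, showed nearly the same fall against both, with −0.42 against mock and −0.40 against set A on the log2 scale. Without active NFATc4 replicate 1 or 3 or control replicate 2, 6 members were lower than in set A, and with gene length as an offset 6 were.

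**Figure D4:**
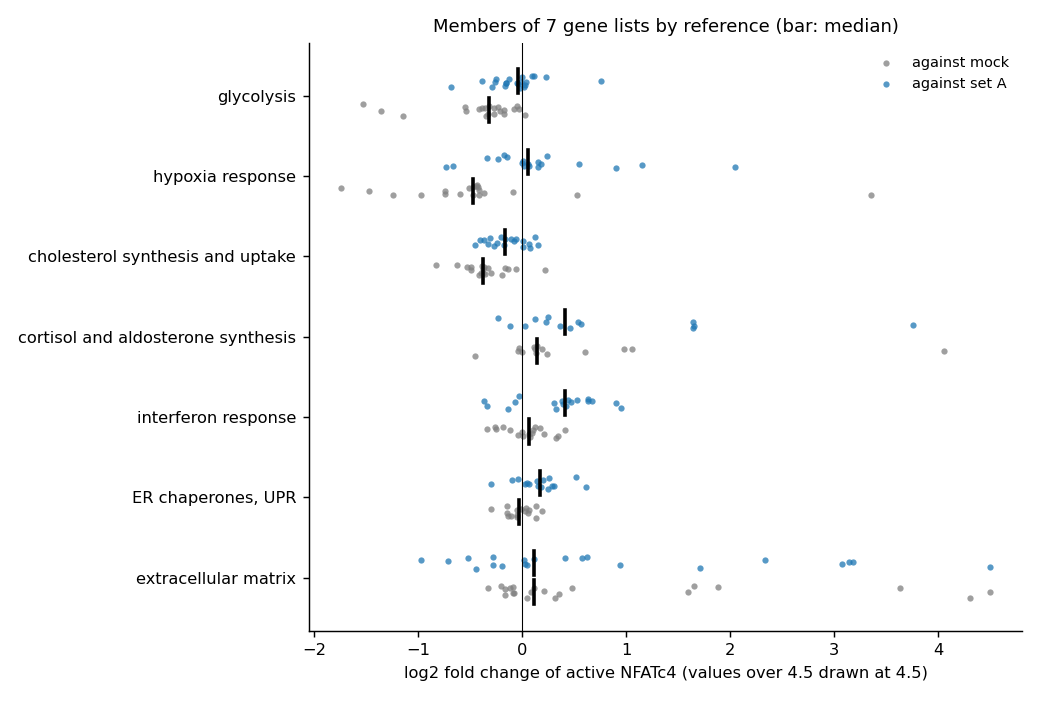
Log2 fold change of active NFATc4 against mock (grey) and set A (blue) for each tested member of 7 gene lists, with a black bar at the median. The grey medians of glycolysis (−0.32), hypoxia and cholesterol synthesis lie left of the blue ones, and the blue medians of steroid synthesis and interferon response (0.41 each, with CYP11B2 and CYP11B1 in the former) lie right of the grey ones.

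Of 494 rises over mock that did not hold, 291 still lay above set A without a call. Another 131 lay below set A without a call, and 72 were called lower than in set A. Mock was called below set A in 380 of the 494, beside 21.4% of all genes. Picking rises that did not hold favors a mock below set A, so this is not a separate result. The 10 rises not held with the largest difference between mock and set A were LRRC55, PSG9, CUX2, ADAMTS14, SCG2, HOXC11, MYL7, EPPK1, KPNA7 and PMFBP1. Of these, 7 had under 1 CPM in every active NFATc4 library. SCG2, secretogranin II, a protein of secretory granules, had 2.35, 2.28 and 3.00 CPM with active NFATc4, 0.436, 0.385, 0.701 and 0.680 CPM in mock, and 2.78, 2.05, 1.93 and 2.20 CPM in set A. It overlapped with set A and not with mock, with log2 fold changes of 2.18 (SE 0.24, edgeR adjusted P = 4.2e-06) and 0.17 (SE 0.19, edgeR adjusted P = 0.52). CUX2, a homeobox transcription factor, had 2.19, 1.81 and 1.58 CPM against 0.107 to 0.523 CPM in mock and 1.04 to 2.26 CPM in set A. In the list of calcium channels, pumps and potassium channels, 2 of 20 tested members turned round, CACNA1C and KCNJ5. Both were rises over mock, and among all 14251 genes tested 72 rises turned round. Of the 20, 1 was higher and 1 lower against both, beside 3.99% and 2.57% of all genes. CACNA1C, an L-type calcium channel, had 50.5, 61.0 and 52.8 CPM, above mock (31.9 to 42.6 CPM) and below set A (68.8 to 95.3 CPM). KCNJ5, the potassium channel mutated in aldosterone-producing adenomas, had 312, 338 and 309 CPM, above mock (218 to 252 CPM) and overlapping the lowest of set A (324 to 407 CPM). Its log2 fold change was 0.41 against mock (SE 0.07, edgeR adjusted P = 0.00052) and −0.20 against set A (SE 0.07, edgeR adjusted P = 0.035). The latter call was lost without active NFATc4 replicate 1 or 3 or without control replicate 1 or 2. Of the falls that did not hold, DKK2, another secreted WNT antagonist, turned round, with 2.87, 3.40 and 2.73 CPM against 3.66 to 5.58 CPM in mock and 0.911 to 1.94 CPM in set A, although its call against mock was lost without any 1 of the active NFATc4 libraries or mock replicate 2, 3 or 4. Further falls among the 10 not held with the largest difference between mock and set A were LRRN3, CST1, C2orf72, BHLHE40 and KLF9. Their calls against mock were lost for BHLHE40 in 10 of the 11 fits without 1 library, for CST1 without active NFATc4 replicate 1 or 3 or mock replicate 4, and for KLF9 without active NFATc4 replicate 2 or 3. Among the rises, calls against mock were lost for EPPK1 in 9 of the 11 such fits, for HOXC11 without any 1 of the active NFATc4 libraries or mock replicate 4, for LRRC55 without active NFATc4 replicate 2 and for PSG9 without replicate 1. HOXC11 and LRRC55 were called lower than set A, and these calls were lost for HOXC11 without active NFATc4 replicate 1 or control replicate 1 and for LRRC55 without any 1 of the active NFATc4 libraries or NFATc4-KO replicate 2.

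Against set A alone, 1753 genes were higher and 2105 lower, and in most of them mock stood apart from set A in the same direction. Mock was also higher in 1333 of the 1753 and also lower in 1702 of the 2105, beside 20.7% and 21.4% of all genes. Picking genes called against set A and not against mock favors this pattern, so it is not a separate result. CD79A, a B cell receptor subunit, had 29.5, 26.4 and 27.1 CPM with active NFATc4 and 25.2 to 28.1 CPM in mock, and 3.71 to 6.58 CPM in set A. KIT, a receptor tyrosine kinase, had 1.05, 0.733 and 0.525 CPM, 0.770 to 1.11 CPM in mock and 4.76 to 5.04 CPM in set A, and IGF1 had 0.526 to 0.683, 0.514 to 1.29 and 2.20 to 3.51 CPM. In these genes active NFATc4 and mock overlapped, and both lay apart from set A. The others of the largest rises were GAL, NELL2, SERPINF1, RUNX2, AQP3, ARHGAP29 and EPHA10, and the other falls DAPK1, PRLR, ANKRD36B, MMD2, PWAR5 and CSMD1. Among interferon response genes, 11 of 18 tested were higher than in set A and 2 lower, beside 16.6% and 17.8% of all genes. Relative to mock 1 was higher and 1 lower, and mock was higher than set A in 10. The 2 lower calls were lost without active NFATc4 replicate 1 or 3 or control replicate 1 or 2. IFI6, an interferon-induced mitochondrial protein, had 28.5, 27.5 and 25.6 CPM, 23.9 to 36.8 CPM in mock and 12.7 to 16.0 CPM in set A.

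Calls against set A moved with gene length, taken here as the bases that all annotated exons of a gene cover together. In the quartile of genes with the shortest exon length, 25.8% were higher and 5.93% lower in active NFATc4 than in set A. In the quartile with the longest, 8.63% were higher and 35.8% lower. Mock against set A showed the same trend, with 32.8% and 8.31% in the shortest quartile and 8.91% and 42.7% in the longest, while active NFATc4 against mock stayed between 6.91% and 8.24% higher and between 5.09% and 7.03% lower in all quartiles. The length trend thus separates both active NFATc4 and mock from set A. Long genes such as DMD and ITPR2 were lower against set A, and 6 of 13 mitochondrially encoded genes were higher, beside 16.6% of all genes, and 1 lower, MT-ND6 (log2 fold change −0.72, edgeR adjusted P = 0.025), whose call was lost without active NFATc4 replicate 1 or 2 or control replicate 1. With gene length as an offset, 3 of these 13 were higher, and 613 rises and 415 falls against mock held, of which 247 and 10 exceeded 2-fold against mock. The part of the length trend in the calls against set A was not tested beyond this offset.

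Markers of adrenocortical cells were high in every library, with a summed level of 4020 to 5510 CPM over 12 genes. Of 8 fibroblast markers, 5 were tested and 3 rose against both references, COL3A1, LUM and THY1, beside 3.99% of all genes, while COL1A1 was lower than in set A. The summed level was 46.3 to 54.1 CPM in active NFATc4, 21.1 to 26.3 CPM in mock and 22.5 to 25.9 CPM in set A. COL3A1 made up most of the difference. The 7 endothelial markers summed to at most 0.841 CPM in a library and the 8 leukocyte markers to at most 3.68 CPM. Chromaffin markers summed to 31.0 to 45.0 CPM, with 2 of 9 at 0 in all libraries. The part of other cells in the rise of COL3A1, LUM and THY1 was not tested.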

How the data were processed

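RNA-Seq of 15 libraries, of which 11 enter the fit, gave 1 count file a library. Per the study's methods, the authors trimmed reads with fastp, mapped them to GRCh38.p13 by STAR and assigned them to genes by featureCounts. These deposited counts are not normalized. Tool versions, strand and multi-mapping settings are not given in the sources used here. TMM scaling, CPM and tests were made here with edgeR 4.0.16 under R 4.3.3, with limma 3.58.1 and DESeq2 1.42.0 for alternatives. Genes kept by filterByExpr entered a robust quasi-likelihood fit with 3 means and no covariate, and Benjamini-Hochberg adjustment ran over the 14251 genes. Mock against set A is the test of whether the 2 changes of a gene differ. The standard error equals the fold change on the log2 scale over the root of F. The fit was tested on simulated counts.

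The libraries of set A, the 23 gene lists and the tests were chosen with earlier results of these data known. Genes named are the markers, the 15 largest rises and 15 largest falls against set A that held without overlap, the 10 rises and 10 falls not held with the largest gap between mock and set A, the 8 largest in each direction against set A only, and list members. The text also names 15 list members outside that rule, chosen after their values were seen. Alternatives were 23 planned settings, among them each library left out, and gene length as an offset, added after seeing the data. Gene positions are from the GENCODE annotation of GRCh38. A fold against a set with no count uses a floor of 3 counts over that set, for counting error only.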

Additional observations from a re-analysis of the deposited data

Results flagged for a closer look

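Among 231 groups of 4 libraries examined for the genes named, 5 values lay apart from the other 3 libraries of their set by Dixon's test at 95%, which chance alone flags in about 1 of 20 groups. In mock, BNIP3 was at 143.9 CPM in replicate 4 against 204.3 to 215.3 CPM in the others, CYP11B1 at 1.395 CPM in replicate 4 against 2.092 to 2.223 CPM, CST2 at 0.3272 CPM in replicate 3 against 0.171 to 0.1789 CPM, and IGFBP4 at 0.04276 CPM in replicate 2 against 0.1308 to 0.1431 CPM. In set A, REG3A was at 0.04034 CPM in control replicate 1, which is 1 count, and at 0 in the other 3 libraries.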

How the results depend on the processing

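No value of a named gene that was called changed sign in the 24 alternatives, while 111 values that were not called crossed 0. Of 8848 values of named genes under them, 8293 stayed on their side of the threshold and, where not called, within the spread between libraries. A call was lost in 464 and gained in 68, and 23 values that were not called or not tested moved by more than that spread. With at least 50 counts in 3 libraries, 144 genes were higher and 64 lower by over 2-fold against set A, 91 and 16 against mock, and 80 rises over 2-fold held. In limma-voom 613 falls held. In the test against a 2-fold change, 111 genes were higher and 11 lower than in set A, 84 and 1 than in mock, and 56 rises and 0 falls held, against 366 falls in the edgeR test of any change. Replicate numbers did not mark shared deviations, with correlations of −0.276 to 0.258 between libraries of the same number. With the replicate block, 687 genes were higher and 515 lower than in mock, and 208 falls held. With 1 library left out, 1552 to 2532 genes were higher than in set A, 643 to 1094 higher and 474 to 999 lower than in mock, and 196 to 537 falls and 6 to 12 falls over 2-fold held. The low values of 1552, 643, 474, 196 and 6 came without active NFATc4 replicates 1, 2, 2, 1 and 3, and the high ones without mock replicate 1 (12 also without mock replicate 4). Without active NFATc4 replicates 2 and 3, 236 and 216 falls held. Without active NFATc4 replicates 1 and 3, 500 and 530 genes were lower than in mock. With only active NFATc4 and set A, or only active NFATc4 and mock, in the fit, the call of PFKFB4 against mock was lost (log2 fold change −1.53, edgeR adjusted P = 0.0619) and ALDOC was called lower than set A (−0.17, edgeR adjusted P = 0.0222). The cause of these differences was not tested beyond the smaller number of libraries or genes in each fit. Depth limits genes near 0 in a reference, such as MGP, IGFBP4 and REG3A, whose folds rest on few counts.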

Other observations

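Over all genes, 16.6% were higher and 17.8% lower than in set A, and 7.46% were higher and 6.09% lower than in mock. Counts of the lists below are read beside these shares. Among immediate early genes, which growth and stress signals induce within minutes, 17 were tested and 8 were higher than in set A and 2 lower, against 3 and 3 relative to mock, and mock was higher than set A in 8. FOSL1 rose against both references, by 1.46 against set A and 1.37 against mock on the log2 scale, while FOS, EGR1 and ATF3 were higher than in set A by 1.04, 1.12 and 0.92 and were not called against mock. FOSL1, FOS, EGR1 and ATF3 were chosen after their values were seen. MYC was lower against both, by −0.42 and −0.58. Chaperones and other genes of the unfolded protein response were higher than in set A in 9 of 16 and lower in 1, against 1 and 1 relative to mock, and amino acid stress genes in 7 of 16 and lower in 4, against 0 and 4. Genes of androgen synthesis and steroid conjugation were lower than in set A in 6 of 12 and higher in 1, against 1 and 1 relative to mock. AKR1C3, which makes testosterone from androstenedione, was lower against both, with 51.3, 50.5 and 48.1 CPM against 59.3 to 74.0 CPM in mock and 55.2 to 64.7 CPM in set A. Of 20 genes of DNA replication and mitosis, 3 were higher and 3 lower than in set A and 0 were called against mock by edgeR, near or below those shares.

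In the list of calcium channels, pumps and potassium channels, 4 of 20 were higher and 7 lower than in set A, against 5 and 3 relative to mock. Among WNT antagonists and targets, 5 of 15 were higher and 3 lower than in set A, against 3 and 0. In the IGF system, 3 of 13 were higher and 6 lower than in set A, against 2 and 1. Among p53 targets, 1 of 13 was higher and 1 lower than in set A, against 0 and 2 by edgeR. Adrenocortical markers were higher than in set A in 5 of 12 and lower in 0, against 2 and 0. Of the chromaffin markers 2 were tested and 1 was higher than in set A, and of the leukocyte markers 3 were tested and 1 was higher against each reference.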
